A study of Homo sapiens with 4 samples.

Results

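Lysosome and autophagy genes were examined as a set of 39 genes among the 25027 gene symbols and unmatched identifiers measured in RPE1 cells. The genes were chosen by name for their function. No value was used as a criterion, but earlier results of these data were known when the choice was made. They comprise 13 lysosomal enzymes and saposins, 4 lysosomal membrane proteins or channels, 7 subunits of the vacuolar proton pump, 3 transcription factors of the TFEB family, and 12 genes of the autophagy machinery and its cargo receptors. RPE1 is an established human line from retinal pigment epithelium, immortalised with telomerase. Cells received 10 nM of an siRNA against SAF-A, the nuclear RNA- and chromatin-binding protein encoded by HNRNPU, or a negative control siRNA, in each case with a lipid transfection reagent and in serum-containing medium. Total RNA depleted of ribosomal RNA was sequenced at 24 h or 48 h after transfection. The 4 groups, each siRNA at each time, have 1 library each, and no difference below has a replicate check or a p-value. SAF-A was targeted with a single siRNA, so an effect of that siRNA on other genes cannot be told apart from an effect of SAF-A loss.

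Lysosomes are acidic organelles in which hydrolases break down proteins, lipids, glycans and nucleic acids. The V-ATPase, a rotary pump with a cytosolic V1 sector and a membrane V0 sector, acidifies them. Autophagy delivers cytoplasm to lysosomes: the ULK1 and BECN1 complexes start a membrane, the ATG12 and ATG8 conjugation systems extend it, and receptors such as SQSTM1 bring cargo to it. TFEB, TFE3 and MITF bind E-box elements in the promoters of many of these genes, and when nutrients are plentiful they are held in the cytoplasm by the kinase mTORC1.

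Levels are given as FPKM, the fragments mapped to a transcript divided by its length and by the depth of the library, summed over the RefSeq transcripts of a gene. FPKM is scaled by length, so levels of different genes can be compared. Where values of 4 libraries follow each other, their order is control then SAF-A siRNA at 24 h, followed by control then SAF-A siRNA at 48 h. A change is the difference in log2(FPKM + 1), which shrinks the change of genes near 0 FPKM. Called means at least 2-fold on that scale, and intervals apart means that the deposited 95% intervals of the libraries compared did not overlap. They say nothing of how much separate cultures differ.

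The libraries rested on 28083822, 30701282, 28586051 and 1216740 mapped reads, so the SAF-A 48 h library was by far the shallowest. The median member had 1440, 1575 and 1817 estimated reads in the other libraries and 195 in that one, where 6 members had fewer than 20. In the SAF-A 48 h library 148 of the 11053 genes tested were listed at 0, against 0 or 1 in the others. HNRNPU was at 91.2, 10.4, 84.6 and 9.24 FPKM, low in both libraries labelled SAF-A. Markers of differentiated retinal pigment epithelium were nearly absent: only OTX2 of 12 reached 1 FPKM, and RPE65 and TTR were at 0 in all 4 libraries. Of 8 macrophage and leukocyte markers only CD68, itself a lysosomal glycoprotein, reached 1 FPKM, and it was lowest, at 7.0 FPKM, in the SAF-A 48 h library. That value came from about 13 reads, and its interval of 3.08 to 11.9 overlapped those of all the other libraries.

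The 39 genes differed little between SAF-A and control siRNA at 24 h and were mostly higher with SAF-A siRNA at 48 h. At 24 h no member was called in either direction, where 0.389% of all genes tested were called higher and 0.244% lower. Their median change at 24 h was -0.03, and that of all genes tested was -0.07. At 48 h 20 of 39 members, or 51.3%, were called higher and 0 lower. The background at 48 h was 14.3% of genes called higher and 18.5% called lower, so the higher share of the members was above the background. Their median change at 48 h was 1.05 and that of all genes tested was -0.11. With intervals apart required as well, 19 members were called higher and 0 lower at 48 h, against 12.8% and 16.6% of all genes tested.

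All 39 members passed the filter of a mean of 1 FPKM over the 4 libraries. TFEB and SGSH passed it only through the SAF-A 48 h library, where they were highest. Among the other 37 members 19 were called higher at 48 h and their median change was 1.05.

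**Figure D1:**
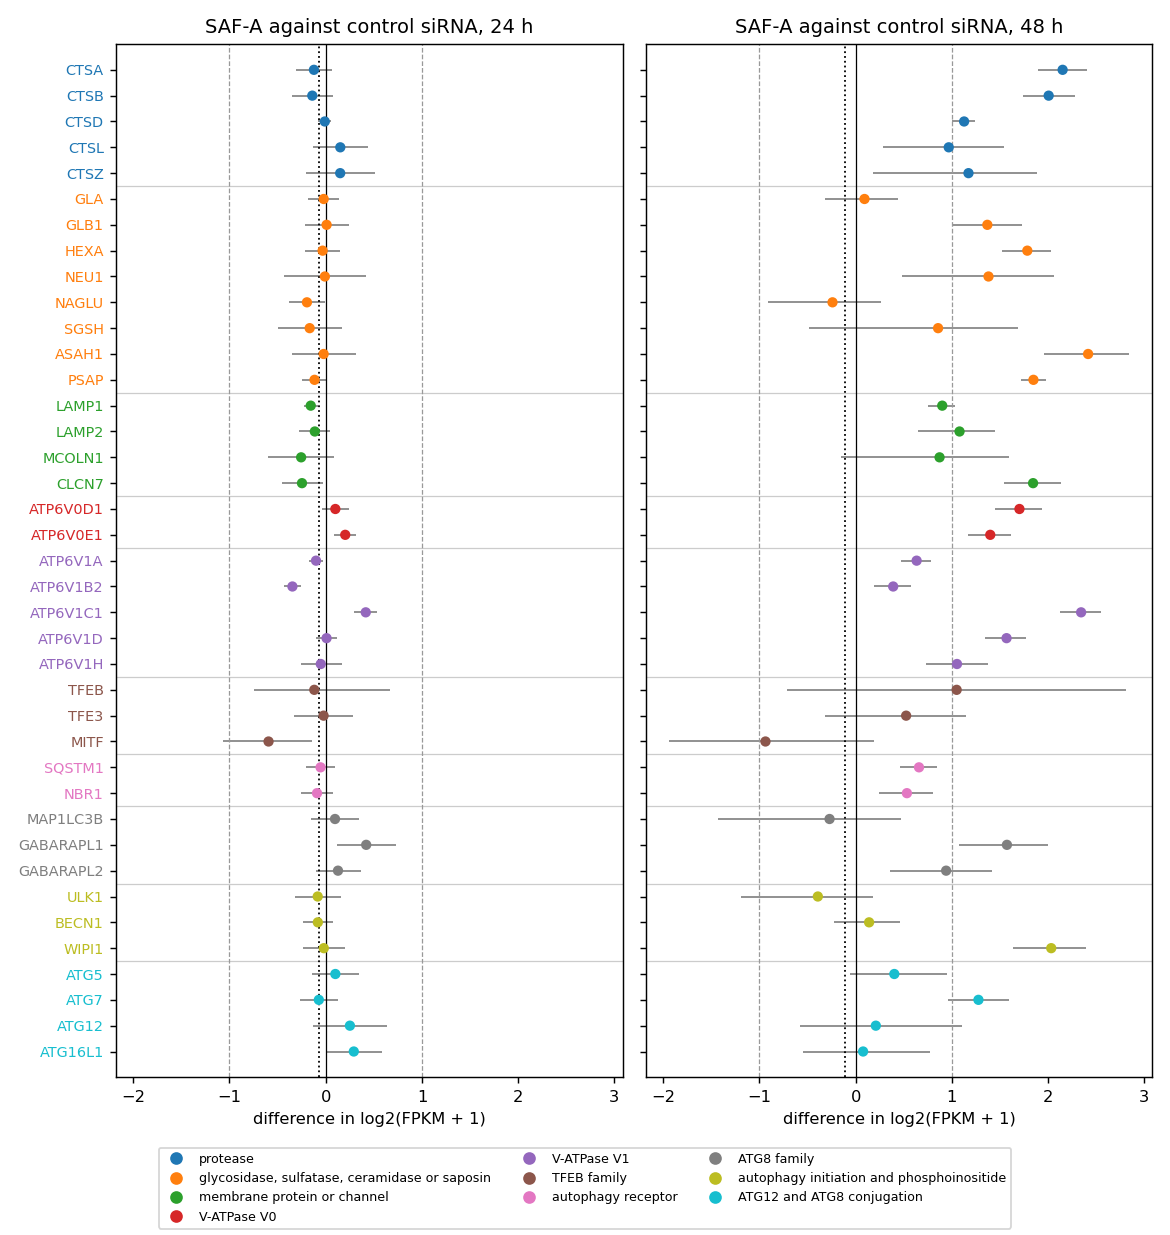
Change of each member between SAF-A and control siRNA, as a difference in log2(FPKM + 1), at 24 h (left) and 48 h (right), with genes grouped by role. Points are the 2 libraries of a time compared, bars run between the most extreme combinations of the deposited 95% bounds, dashed lines mark 2-fold and the dotted line the median of all genes tested: at 24 h all points lie inside the dashed lines, and at 48 h 20 lie beyond the line on the higher side.

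The control libraries of the 2 times, which also differ in culture and library, were compared next. From 24 h to 48 h with control siRNA the median change of the members was 0.17 and that of all genes 0.03. GABARAPL1 was the only member called higher and none was called lower, where 0.561% and 0.425% of all genes were called. With SAF-A siRNA over the same interval 26 members were called higher and 0 lower, against 15.5% and 16.0% of all genes, with a median of 1.23. This comparison and that at 48 h share the SAF-A 48 h library and are not independent.

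In 26 members the SAF-A 48 h library lay above each of the other 3 libraries with intervals apart, and in 0 members below, against 20.0% and 20.3% of all genes tested. Among the other 3 libraries the highest value of a member was 1.30 times its lowest at the median and 2.44 times at most, in GABARAPL1. The difference at 48 h therefore rested on the library with the fewest reads and was not seen in the SAF-A 24 h library. Of the 5 simple epithelium and RPE1 line markers, VIM was at 2145, 1845, 1586 and 3312 FPKM and CDH2 at 66.7, 68.4, 51.1 and 81.5 FPKM, both higher at 48 h with intervals apart. KRT7, a keratin, was at 5.08, 4.53, 8.92 and 3.84 FPKM, lower at 48 h with intervals apart. KRT8 and KRT18, the other keratins, carry a failed status in the deposited tables of 3 libraries, with bounds that do not contain the value, and are not compared. All 5 markers were listed above 1 FPKM in every library, and their summed level of 2401, 2078, 1938 and 3436 FPKM was mostly that of VIM. The part of these markers in the members' result was not tested. In bulk RNA a change in the share of cells of a type and a change in RNA per cell cannot be told apart.

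**Figure D2:**
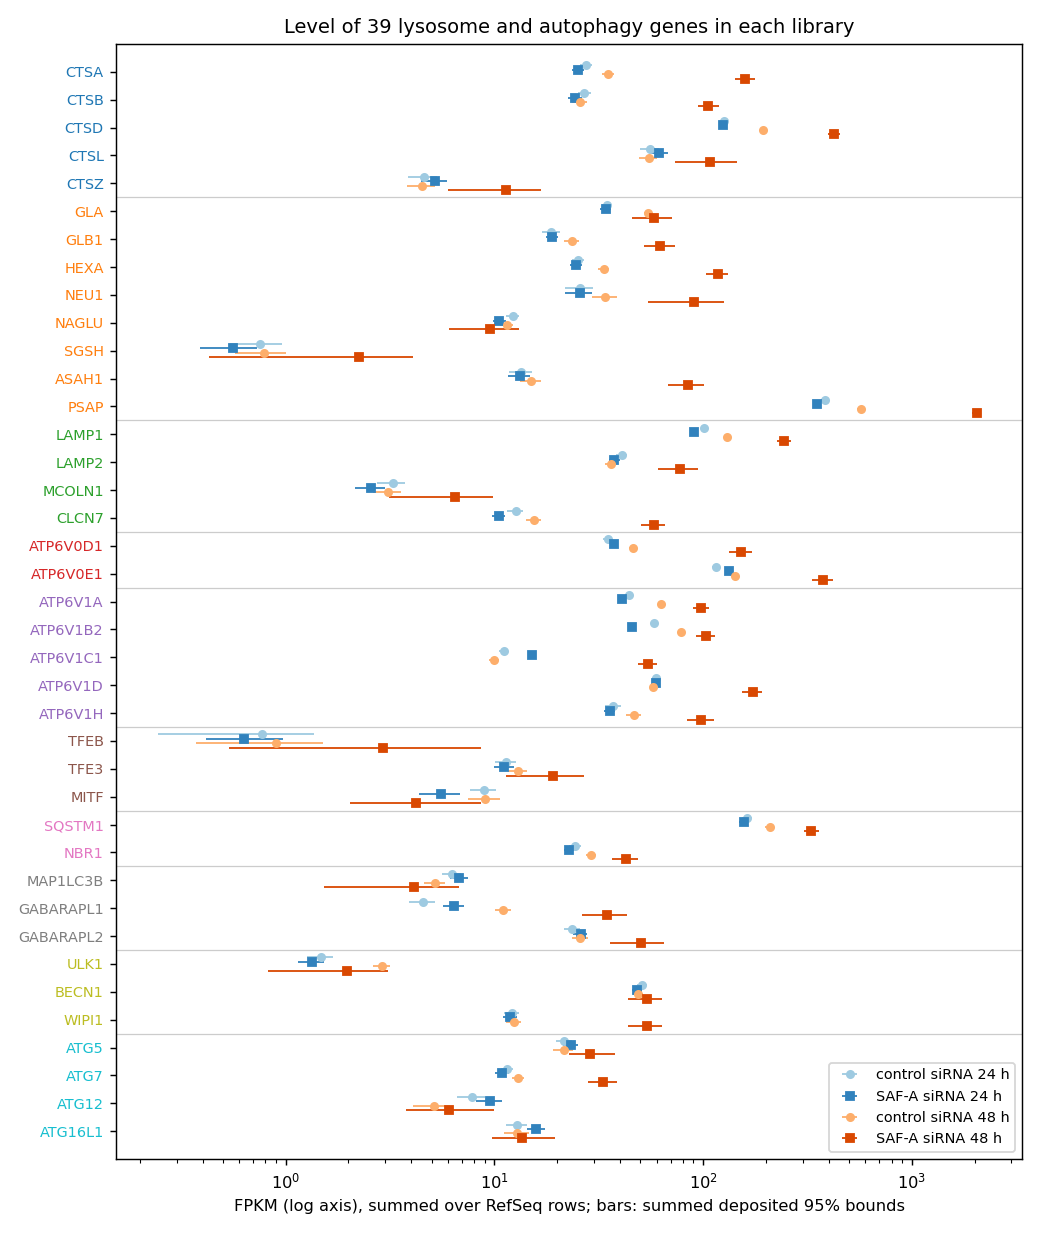
Level of each of the 39 members in FPKM (log axis) in the 4 libraries, with bars for the summed deposited 95% bounds and genes grouped by role as in the plot of changes. In most genes the 3 other libraries lie close together and the SAF-A 48 h library (dark orange squares) lies to their right, and MITF, MAP1LC3B and NAGLU are the members in which it is lowest.

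Level and length moved with the changes at 48 h. The mean that sets the level includes the SAF-A 48 h library, so level and change at 48 h are not independent. Among genes that are not members, the median change at 48 h rose from -0.38 at a mean of 1 to 5 FPKM to 0.32 at 25 to 100 FPKM, and was 0.21 at 100 FPKM or more. The share of these genes called higher was 8.09% in the lowest of these bins and 27.7% in the highest. The members are highly expressed: 31 had a mean of at least 10 FPKM, which GABARAPL1, called higher, reached only through the SAF-A 48 h library. Of these 31, 18 were called higher and 0 lower at 48 h, against 19.7% and 15.1% of the 5536 genes at that level, and their median was 1.13 against 0.15. From the lowest bin to the highest, the members' medians were 0.86, -0.03, 1.28, 1.08 and 1.13, over 4, 4, 9, 17 and 5 members. The median of genes that are not members was -0.24 at 5 to 10 FPKM, where that of the 4 members was -0.03. Longer genes that are not members were lower, with a median of 0.13 at 300 to 1500 nt and -0.22 at 5000 nt or more. The members' medians were 0.94 at 300 to 1500 nt, 1.15 at 1500 to 3000 nt, 0.46 at 3000 to 5000 nt and 1.18 at 5000 nt or more, over 3, 22, 10 and 4 members. The part of level and length in the result was not tested beyond these values.

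**Figure D3:**
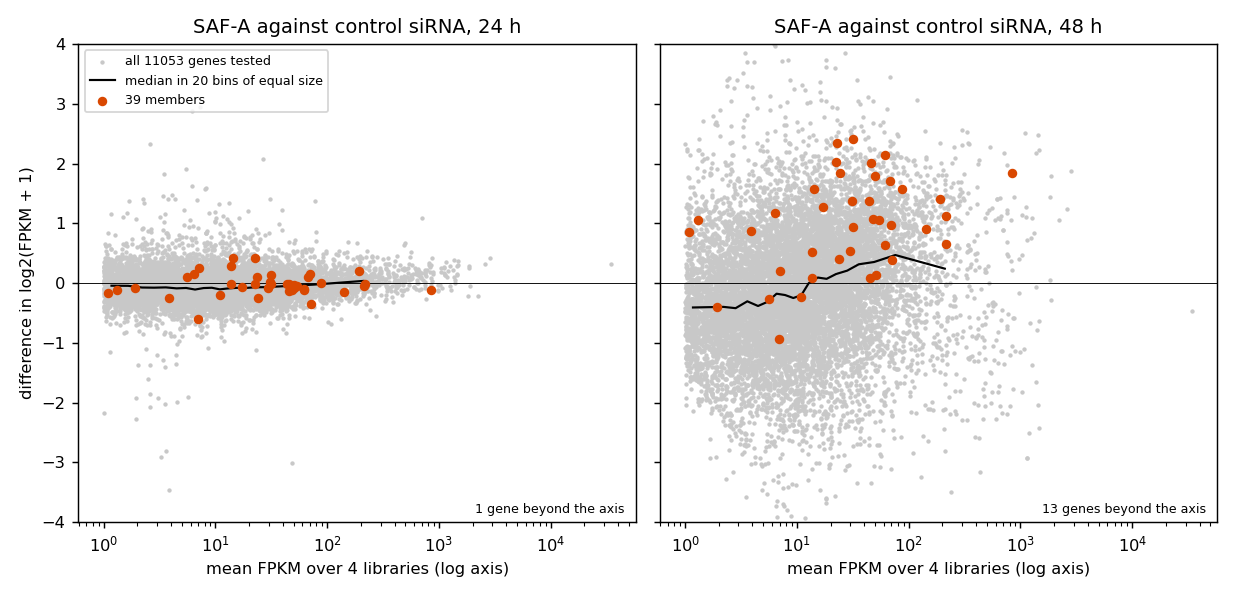
Change between SAF-A and control siRNA against mean FPKM over the 4 libraries (log axis), at 24 h (left) and 48 h (right), for the 11053 genes tested (grey), their median in 20 bins of equal size (line) and the 39 members (orange). At 48 h the line is higher at high than at low levels and most members lie above it, while at 24 h they lie around it; 1 gene at 24 h and 13 at 48 h fall outside the axis.

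The lysosomal proteases were all higher with SAF-A siRNA at 48 h, and 4 of the 5 were called. CTSA (chromosome 20, 44519591 to 44527458, plus strand, hg19), the protective protein that stabilises beta-galactosidase and neuraminidase, was at 27.5, 25.2, 35.0 and 159 FPKM. Its SAF-A 48 h value, from about 395 reads, was 4.54 times the control. CTSB, a cysteine cathepsin, was at 27.0, 24.4, 25.6 and 106 FPKM, a change of 2.01. CTSD, the main aspartic protease of lysosomes, already differed between the control libraries: it was at 126, 125, 194 and 424 FPKM, a change of 1.13 at 48 h and of 0.62 with time in the controls. CTSZ, a carboxypeptidase, was at 4.59, 5.20, 4.51 and 11.4 FPKM, the last from about 18 reads with an interval of 6.03 to 16.8. For all 4 genes the SAF-A 48 h interval lay above the other 3. CTSL, another cysteine cathepsin, was at 55.4, 61.7, 54.9 and 108 FPKM, a change of 0.97 and so just under 2-fold, with intervals apart. At 24 h none of the 5 had intervals apart, and their changes ranged from -0.14 to 0.15.

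The glycan and lipid hydrolases, with the saposin precursor, were less uniform, and 5 of 8 were called higher at 48 h. ASAH1 (chromosome 8, 17913925 to 17942507, minus strand), the acid ceramidase, had the largest change of the 39 members. It was at 13.5, 13.2, 15.0 and 84.3 FPKM, a change of 2.42 with most extreme bounds of 1.96 and 2.85. HEXA, the alpha subunit of beta-hexosaminidase, was at 25.3, 24.7, 33.5 and 118 FPKM. GLB1, the beta-galactosidase commonly stained as a senescence marker, was at 18.8, 18.9, 23.5 and 62.3 FPKM. In these 3 genes the intervals of the 24 h libraries overlapped and that of the SAF-A 48 h library lay above the other 3. NEU1, a sialidase, was at 25.8, 25.7, 34.0 and 90.2 FPKM. Its sum runs over 8 rows, 1 on chromosome 6 and 7 on alternate haplotypes, with 3.24, 3.22, 4.28 and 11.3 FPKM on chromosome 6, and how reads matching several places were divided is not given in the sources used here.

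PSAP (chromosome 10, 73576055 to 73611082, minus strand), the precursor of the saposins that present lipids to hydrolases, was the most abundant member, at 383, 353, 569.9 and 2054 FPKM. It made up 23.4%, 22.2%, 27.1% and 37.96% of the summed FPKM of the 39 members. Its change was 1.85 at 48 h, from about 6550 reads in the SAF-A library, and 0.57 with time in the controls. The members took 0.391%, 0.374%, 0.501% and 1.29% of mapped reads. The last share was thus the highest of the 4 libraries.

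The other 3 of this group were not called. GLA, the alpha-galactosidase, was at 34.7, 34.1, 54.6 and 58.2 FPKM. It was higher at 48 h than at 24 h in the controls by 0.64 and differed by 0.09 between the siRNAs at 48 h. NAGLU, which degrades heparan sulfate, was at 12.3, 10.6, 11.5 and 9.56 FPKM, the lowest value lying in the SAF-A 48 h library with overlapping intervals. SGSH, a sulfatase of the same pathway, was the lowest member, at 0.75, 0.56, 0.79 and 2.24 FPKM. Its SAF-A 48 h value came from about 7 reads, and its interval of 0.431 to 4.06 overlapped that of the control.

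Of the membrane proteins, CLCN7 and LAMP2 were called higher at 48 h. CLCN7, a chloride-proton exchanger, was at 12.6, 10.5, 15.4 and 58.0 FPKM, a change of 1.84. LAMP1, one of the most abundant glycoproteins of the lysosomal membrane, was at 101, 90.5, 131 and 245 FPKM, a change of 0.90 with intervals apart. MCOLN1, the calcium channel of lysosomes, was at 3.25, 2.56, 3.10 and 6.51 FPKM, and its 15 or so reads in the SAF-A 48 h library left the intervals overlapping. All 4 membrane genes were below control at 24 h, LAMP1 and CLCN7 with intervals apart. Most genes were: 7112 of the 11053 tested were below 0 at 24 h, and 18.4% were lower with intervals apart.

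LAMP2, the receptor of chaperone-mediated autophagy in its A form, is encoded on the minus strand of chromosome X (119560003 to 119603204, hg19). The gene was at 40.8, 37.6, 36.1 and 77.4 FPKM, a change of 1.08 at 48 h. Its 3 transcripts differ in the last exon, which encodes the membrane anchor and the short cytosolic tail. The first 30 bases of each last exon are shown because they separate the forms. They are written 5′ to 3′ on the minus strand of GRCh37, with capitals at the 17 positions where the 3 forms are not all alike.
LAMP-2A (NM_002294, chrX:119565288-119565317): cTCaagaCtgCAGTGCAgaTGACgacAAcT
LAMP-2B (NM_013995, chrX:119573119-119573148): cCCaagaGtgTTCGCTGgaTGATgacACcA
LAMP-2C (NM_001122606, chrX:119562452-119562481): cTGaagaAtgTTCTGCTgaCTCTgacCTcA

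LAMP-2B led in every library, at 35.3, 30.5, 31.1 and 39.2 FPKM, and its 48 h intervals overlapped. LAMP-2A was at 5.52, 7.15, 5.01 and 15.4 FPKM. LAMP-2C was near 0 in 3 libraries, with upper bounds of 0.0201, 0.0184 and 0.0197 FPKM, and at 22.9 FPKM in the SAF-A 48 h library (interval 16.6 to 29.2, about 99 reads). The share of LAMP-2B was 86.5%, 81.0%, 86.1% and 50.6%. The higher gene-level value at 48 h thus lay mainly in rows LAMP-2A and LAMP-2C. The last exon of LAMP-2C (119560003 to 119562481) lies wholly within that of LAMP-2A (119560003 to 119565317), so reads in it fit either form. The split between these forms rests on reads that cross the junction into the bases shown or lie in the part that is in LAMP-2A alone.

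**Figure D4:**
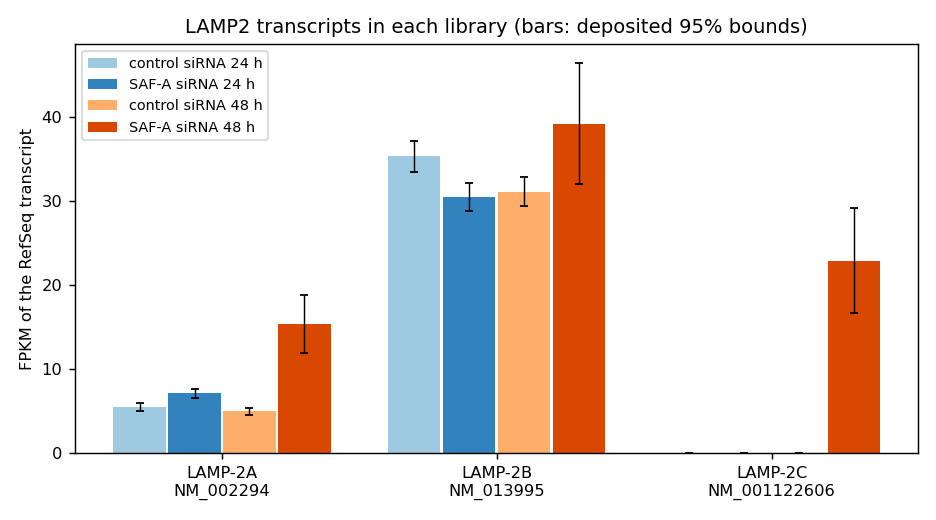
FPKM of the 3 LAMP2 transcripts in the 4 libraries, with bars from 0 and error bars for the deposited 95% bounds. LAMP-2B is the highest bar in every library, and LAMP-2C is above 0.0201 FPKM in the SAF-A 48 h library alone.

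All 7 V-ATPase subunits in the set, which does not hold the whole pump, were higher at 48 h with intervals apart, and 5 were called. Over all genes tested 22.7% were higher by any amount with intervals apart at 48 h and 27.1% lower, while 26 members were higher and 0 lower. Both V0 subunits in the set were called. ATP6V0D1, which couples the sectors, was at 34.9, 37.5, 46.2 and 152 FPKM. ATP6V0E1, a small subunit of the membrane sector, was at 115, 133, 142 and 377 FPKM. In the V1 sector, ATP6V1C1, which links the catalytic head to the stalk and takes part in its reversible assembly, changed most. It was at 11.1, 15.1, 9.98 and 54.7 FPKM, a change of 0.42 at 24 h and 2.34 at 48 h, both with intervals apart. ATP6V1D, the central rotor shaft, was at 59.2, 59.6, 57.8 and 173 FPKM, and in it the other 3 libraries had overlapping intervals. ATP6V1H, a regulatory subunit, was at 37.0, 35.7, 46.4 and 97.4 FPKM, a change of 1.05.

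Of the 7 subunits in the set, those of the catalytic head moved least. ATP6V1A, which binds ATP, was at 44.1, 41.1, 62.7 and 97.8 FPKM, a change of 0.63 at 48 h. ATP6V1B2, its partner in the head, was at 58.3, 45.6, 78.6 and 103 FPKM, a change of 0.39. Both genes were lower with SAF-A siRNA at 24 h with intervals apart, by -0.10 and -0.35, and higher at 48 h in the controls. Among these 7 subunits the changes at 48 h thus ranged from 0.39 to 2.34. The range does not cover the whole complex. Of 9 other V-ATPase genes tested at 48 h, 5 were above 0 and 4 below. Of these, 3 were called higher and 1 lower, which was ATP6V1F at -1.05 with intervals apart.

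At 24 h the intervals were apart in 10 members, all with small changes. ATP6V0E1, ATP6V1C1, GABARAPL1 and ATG16L1 were higher, and NAGLU, LAMP1, CLCN7, ATP6V1A, ATP6V1B2 and MITF were lower. These 4 and 6 of 39 members stand against 8.66% and 18.4% of all genes tested. Above 0 at 24 h were 13 members, or 33.3%, near the 35.6% of all genes tested, a count that moved to 5 when the values of each library were rescaled to the same total over all rows (TPM), which shifted the median of all genes by -0.16.

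The transcription factors of the TFEB family did not move together. TFEB was among the lowest members, at 0.77, 0.63, 0.90 and 2.94 FPKM. It was called higher at 48 h with a change of 1.05, but from about 7 reads and with an interval of 0.537 to 8.62 that overlapped that of the control. TFE3 was the most abundant of the family, at 11.4, 11.2, 13.0 and 19.2 FPKM, and its intervals overlapped at both times. MITF (chromosome 3, 69788586 to 70017488, plus strand), the melanocyte and pigment epithelium member, was at 8.90, 5.56, 9.01 and 4.23 FPKM. It had the lowest change of the 39 members at both times, -0.59 at 24 h with intervals apart and -0.94 at 48 h with intervals that overlapped. Its transcript NM_198177, picked out after its values were seen, was at 6.03, 2.29, 5.13 and 3.84 FPKM and led in all 4 libraries. RNA levels do not measure where these proteins are in the cell.

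Promoters were searched for the E-box read by this family, CACGTG, and for its longer form TCACGTGA, in windows of 250 bases before to 50 after the start of each gene from RefSeq (GRCh38.p14). Both motifs are palindromes, so each match counts for both strands, and every match of the longer form is also a match of the shorter. Of the 39 members 27 had a promoter in the table, and the others were CTSB, HEXA, NAGLU, SGSH, ASAH1, PSAP, LAMP2, ATP6V0E1, ATP6V1A, ATP6V1B2, ATP6V1C1 and ATP6V1H. The E-box was present in 7 of 27, or 25.9%, against 7.43% of 27305 promoters and 10.5% of the promoters of genes tested. The longer form was present in 4 of 27, or 14.8%, against 1.04% and 2.13%. The family binds E-boxes in the promoters of many of these genes, so higher shares were foreseeable before the search. These windows of 30 bases, 1 per gene, are printed because they hold that element, in capitals, 5′ to 3′ on the strand of the gene.
CTSA (chr20:45891298-45891327, plus strand): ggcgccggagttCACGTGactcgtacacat
LAMP1 (chr13:113297226-113297255, plus strand): cgcggcgcagctCACGTGacaagcgctgcc
MCOLN1 (chr19:7522598-7522627, plus strand): gggctaccgggtCACGTGaccgaggcacag
ATP6V0D1 (chr16:67481199-67481228, minus strand): cccccttatggtCACGTGaggcgcttgcgc
CTSD (chr11:1763957-1763986, minus strand): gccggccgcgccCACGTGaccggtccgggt
NEU1 (chr6:31862930-31862959, minus strand): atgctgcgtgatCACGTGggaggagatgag
CLCN7 (chr16:1475038-1475067, minus strand): cccgtcgcgcgtCACGTGgccgccggcgcg

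The first 4 of these genes held the longer form and the other 3 the shorter form alone. LAMP1 held the E-box 6 times in its window. At 48 h the 7 members with the E-box had a median change of 1.38 and 5 were called higher, against a median of 0.60 and 7 called of the 20 members without it. All 7 are lysosomal genes, while the 20 include every autophagy and TFEB family member. The median was 1.27 in all lysosomal members and 0.47 in the autophagy members, so E-box and gene group cannot be told apart here. The members without a promoter in the table are all lysosomal, and most of them were called higher. Among tested genes that are not members, the 923 with the E-box had a median of -0.0014 and 18.1% called higher, against -0.10 and 13.7% of the 7884 without it. For the longer form, 2 of the 4 members with it and 10 of the 23 without it were called higher, with medians of 1.30 and 0.94. The 184 other genes with the longer form had a median of 0.24 and 23.9% called higher, against -0.09 and 13.97% of the 8623 without it. These differences were not tested. A match describes letters in a window and not binding of a factor.

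The cargo receptors and the ATG8 family showed smaller or mixed changes. SQSTM1, the p62 receptor that binds ubiquitin and is itself consumed by autophagy, was the third most abundant member, at 163, 157, 209 and 331 FPKM. Its change was 0.66 at 48 h and 0.36 with time in the controls, both with intervals apart. NBR1, a related receptor, was at 24.4, 22.9, 29.2 and 42.6 FPKM, a change of 0.53 at 48 h, also with intervals apart. An unmatched identifier on the same strand covers 98.2% of the exon bases of NBR1 and is not in this sum. It was at 1.42, 1.65, 2.11 and 2.07e-22 FPKM, so adding it would make the change at 48 h smaller. SQSTM1 shares 18.6% of its exon bases with MRNIP and 3.15% with MGAT4B on the opposite strand, and MGAT4B was at 33.2, 38.4, 24.2 and 144 FPKM. The library kit named in the labels' protocols does not mark strand, so reads in shared bases cannot be told apart.

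Of the ATG8 proteins, which are conjugated to lipid on the growing membrane, GABARAPL1 was called higher. It was at 4.54, 6.41, 11.1 and 34.8 FPKM, with changes of 0.42 at 24 h, 1.57 at 48 h and 1.12 with time in the controls, all with intervals apart. Its order therefore ran from control 24 h to SAF-A 48 h with no overlap. GABARAPL2 was at 23.6, 25.9, 25.8 and 50.5 FPKM, a change of 0.94, and the other 3 libraries overlapped. MAP1LC3B, the LC3 protein used to count autophagosomes, was at 6.28, 6.78, 5.20 and 4.14 FPKM, the last from about 11 reads. Its intervals overlapped at both times. Reads of MAP1LC3B and its near-identical copy MAP1LC3B2, at 3.03, 3.06, 3.40 and 0.65 FPKM, may be split between them, and likewise those of GABARAPL1 and its copy GABARAPL3, at 0.21, 0.15, 0.34 and 1.47 FPKM.

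Of the genes that start autophagy, WIPI1 alone was called. WIPI1 (chromosome 17, 66417422 to 66453653, minus strand), which reads the phosphoinositide made by the BECN1 complex, was at 12.1, 11.9, 12.4 and 53.8 FPKM. The other 3 libraries had overlapping intervals, and the SAF-A 48 h value was 4.34 times the control. BECN1, the scaffold of the lipid kinase complex, was at 51.2, 48.3, 48.8 and 53.8 FPKM with intervals that overlapped at both times, and shares 37.2% of its exon bases with CNTD1 on the opposite strand. ULK1, the kinase at the head of the pathway, was at 1.48, 1.34, 2.89 and 1.97 FPKM, the last from about 12 reads. It was higher at 48 h than at 24 h in the controls by 0.65.

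Of the conjugation machinery ATG7 alone was called. ATG7, the E1-like enzyme of both conjugation systems, was at 11.5, 10.9, 13.1 and 33.0 FPKM, a change of 1.28 with intervals apart. It shares 31.7% of its exon bases with VGLL4 on the opposite strand, which was itself at 8.62, 12.01, 12.09 and 28.03 FPKM, and the part of those reads in the result was not tested. ATG5, ATG12 and ATG16L1 together form the E3-like complex and had changes of 0.40, 0.21 and 0.08 at 48 h with overlapping intervals. ATG5 was at 21.6, 23.2, 21.4 and 28.7 FPKM. ATG12 was highest with SAF-A siRNA at 24 h, at 7.80, 9.48, 5.12 and 6.08 FPKM. ATG16L1 was also highest there, at 12.8, 15.9, 12.8 and 13.6 FPKM. The 12 autophagy members had a median change of 0.47 at 48 h and 3 were called higher. The 24 lysosomal members had a median of 1.27 and 16 were called higher. The difference between these groups was not tested.

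The leading transcript of some members differed between libraries. Of 16 members that had 2 or more transcripts and reached 5 FPKM in all 4 libraries, the transcript with the highest share differed between SAF-A and control siRNA in 2 at 24 h and in 4 at 48 h. It differed in 1 between the control libraries and in 4 between the SAF-A libraries. Over 3217 genes chosen the same way the shares were 9.73%, 29.6%, 11.0% and 29.6% in that order, so the members' shares were near the background. In ASAH1 at 48 h NM_177924 went from 7.42 FPKM in the control to 76.4 FPKM in the SAF-A library, while NM_004315 was at 7.57 and 7.92 FPKM. The higher level of ASAH1 thus lay in a single transcript row. In CTSL at 24 h NM_001257972 had 34.1 FPKM in the control and 0.0112 FPKM in the SAF-A library, and NM_145918 was at 0.0903 and 38.9 FPKM. These transcripts are 1565 and 1569 nt long, and the gene-level change was 0.15. At 48 h NM_001257971 of CTSL led with SAF-A siRNA, at 68.0 FPKM against 4.02 FPKM in the control. ATG5 was led at 48 h by NM_001286106 in the control, at 10.1 FPKM, and by NM_004849 in the SAF-A library, at 28.7 FPKM. In TFE3 at 24 h NM_006521 led in the control with 62.3% and NM_001282142 led with SAF-A siRNA with 65.6%. ATG16L1 was led at 48 h by NM_001190266 in the control and by NM_017974 in the SAF-A library, and its lead also differed between the controls.

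The other genes of these pathways were taken from 9 lists with 137 genes, of which 127 were tested. At 24 h 0 of the 127 were called in either direction. At 48 h 42, or 33.1%, were called higher and 7 lower, with a median change of 0.68, where 14.3% of all genes were called higher and 18.5% lower. The share called higher was 52.9% of 17 genes of lysosomal nutrient sensing, 41.4% of 29 further hydrolases and activators, 40.0% of 15 membrane proteins, 37.5% of 8 conjugation and ATG8 genes and 33.3% of 9 V-ATPase subunits. It was lower in 11 genes of enzyme sorting (27.3%), 15 of autophagy initiation (20.0%) and 13 of autophagosome fusion (15.4%), and lowest in 10 other receptors (10.0%), the last 3 of these near the background. Of the 7 genes called lower, 2 were conjugation and ATG8 genes. Nutrient sensing, the hydrolases, the membrane proteins, the V-ATPase subunits and the other receptors had 1 each. These differences between lists were not tested.

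Genes of these lists with large changes at 48 h were found on both sides. CTSK, a collagen-degrading cathepsin, was at 19.9, 22.9, 18.5 and 212 FPKM, 11.5 times the control at 48 h. SLC17A5, the sialic acid exporter, was at 3.66, 7.44, 4.89 and 36.5 FPKM and so was higher with SAF-A siRNA at both times. On the lower side, ATG4C, a protease that processes ATG8 proteins, was at 6.97, 4.85, 6.54 and 1.66 FPKM. OSTM1, the beta subunit of CLCN7, was at 15.8, 7.94, 15.2 and 5.78 FPKM, lower with SAF-A siRNA at both times while CLCN7 was higher at 48 h. BNIP3, a mitophagy receptor, was at 50.5, 47.7, 49.6 and 22.9 FPKM.

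**Figure D5:**
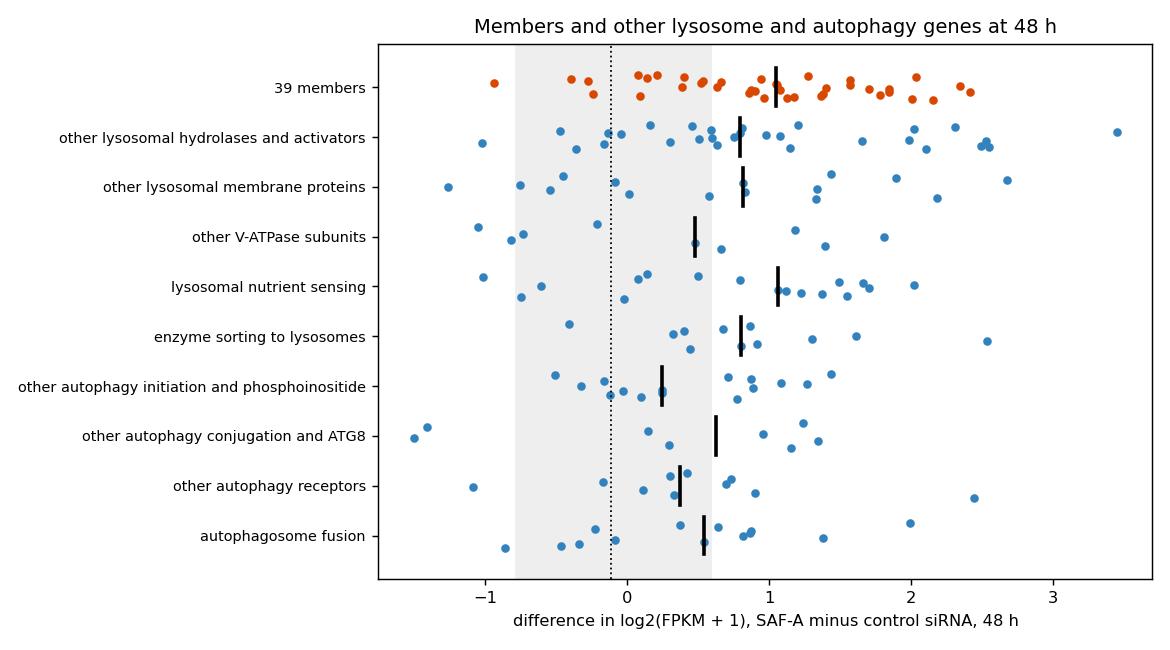
Change at 48 h, as a difference in log2(FPKM + 1) between SAF-A and control siRNA, of the 39 members (orange) and of 127 other genes in 9 lists (blue), with a bar at each median, a dotted line at the median of all genes tested (-0.11) and grey shading between their quartiles. The median of each list lies to the right of the dotted line, and each list also has genes to its left.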

How the data were processed

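RNA-seq values of 4 libraries, 1 per group, were used as deposited. The submitters' processing notes name hg19, TopHat2 2.0.10, Bowtie2 2.1.0, Cufflinks 2.2.1 and Cuffdiff, without roles. The FPKM values and their 95% bounds, 1 row per RefSeq accession, were computed by the authors, per the file headers, and the treatment of strand and of reads matching several places is not given in the sources used here. The coverage values deposited in the transcript files, a measure of another unit, served only to derive mapped reads (coverage over FPKM, with 50-base reads).

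Rows (47338) were joined to symbols through a RefSeq table of GRCh38.p14, used for names only (97.1% matched), and FPKM and bounds were summed per symbol, which makes the bounds wider than an interval for the sum. Estimated reads used the effective length at fragments of 200 ± 80 nt and cover counting error only. Genes were tested where the mean reached 1 FPKM and the longest transcript 300 nt. The 2-fold rule was tested on simulated data with counting error alone. They hold no variation between cultures, so they do not show how reliable a call is here. Values in each library are printed for HNRNPU, for called members with intervals apart, for the 3 highest and 3 lowest members, for the TFEB and ATG8 families, and for the 3 pathway genes each that were most higher and most lower at 48 h with a mean of 5 FPKM or more and intervals apart; other members are added for completeness. Of those pathway genes 1 is not reported here. Transcripts are named for LAMP2 and where the leading one changed. Members and lists were chosen with earlier results of these data known. Alternatives were a pseudocount of 0.1, no filter, means of at least 5 or 10 FPKM (the last added after seeing the data), 2 rescalings to equal totals (TPM, over all rows or over rows of at least 300 nt), centring, and thresholds of 1.5-fold or intervals apart. Python 3.11.15, pandas 2.3.3, numpy 2.4.6 and matplotlib 3.10.9 were used.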

Additional observations from a re-analysis of the deposited data

Results flagged for a closer look

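In 4 members the SAF-A comparisons at 24 h and 48 h pointed opposite ways with deposited intervals apart in both. The change was -0.16 at 24 h and 0.90 at 48 h for LAMP1, -0.25 and 1.84 for CLCN7, -0.10 and 0.63 for ATP6V1A, and -0.35 and 0.39 for ATP6V1B2. The median of all genes tested was -0.07 at 24 h, so the value of ATP6V1A at 24 h lay close to it. In 2 members the changes from 24 h to 48 h pointed opposite ways between the siRNAs: they were -0.17 with control and 1.02 with SAF-A siRNA for LAMP2, and -0.14 and 1.79 for ATP6V1C1. With 1 library per group none of these differences was tested. Each of them takes its higher value from the SAF-A 48 h library, the shallowest of the 4. The share of all genes tested with such opposite changes was not computed, so the counts are not read as particular to the members. With intervals apart, 18.4% of all genes were lower with SAF-A siRNA at 24 h and 22.7% higher at 48 h. From 24 h to 48 h, 1469 of 11053 genes were lower with control siRNA and 2713 higher with SAF-A siRNA, also with intervals apart.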

How the results depend on the processing

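The members' median change at 48 h ranged from 0.86 to 1.13 over the alternatives tried, and the count called higher at 48 h from 17 to 27, the latter at 1.5-fold. The count above 0 at 24 h, 13 of 39, was 5 with rescaling to TPM over all rows and 22 with centring. The count called lower at 48 h, 0 of 39, was 1 with a pseudocount of 0.1, with rescaling over rows of at least 300 nt and at 1.5-fold. At 1.5-fold 1 member was lower at 24 h, 4 were higher with time in the controls and 1 was lower with time under SAF-A siRNA. These moves came with the rescaling, centring, the smaller pseudocount or the lower threshold. The count above 0 at 24 h thus depends on the scaling. Of 128 such values 120 kept their call. Depth limits the 6 members with fewer than 20 reads in the SAF-A 48 h library (CTSZ, SGSH, MCOLN1, TFEB, MAP1LC3B and ULK1). No library could be left out and no paired analysis was possible because each group has 1 library.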

Other observations

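Genes through which lysosomes signal nutrient supply showed many higher values at 48 h: 9 of the 17 tested were called higher and 1 lower, with a median change of 1.06, where 14.3% of all genes tested were called higher and 18.5% lower. The genes named here were chosen after their values were seen. All 5 LAMTOR genes, the subunits of the Ragulator complex that anchors Rag GTPases to the lysosome, were called, from LAMTOR4 with 58.3 FPKM in the control and 123 FPKM with SAF-A siRNA to LAMTOR5 with 26.4 and 88.1 FPKM. The Rag GTPases differed among themselves. RRAGB was at 4.11 and 19.7 FPKM and RRAGC at 10.4 and 35.1 FPKM, while RRAGA was at 26.5 and 17.1 FPKM with intervals apart. RHEB, the GTPase that activates mTORC1, was called lower at 30.6 and 14.6 FPKM. MTOR itself was at 14.1 and 13.9 FPKM with overlapping intervals.

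Among 11 genes that sort enzymes to lysosomes, 3, or 27.3%, were called higher and 0 lower at 48 h, beside 14.3% of all genes tested called higher and 19.7% of those with a mean of at least 10 FPKM. GNPTG, a subunit of the enzyme that adds the mannose 6-phosphate tag, was at 12.6 FPKM in the control and 78.1 FPKM with SAF-A siRNA. The receptors of that tag moved less: IGF2R was at 33.1 and 58.5 FPKM and M6PR differed by 0.45.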
